A study of Mus musculus with 2 samples.

Results

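The promoters of intergenic long noncoding RNAs (lincRNAs) were described in mouse embryonic hindbrain by where DNase-seq peaks fell around their annotated starts. A member was an annotated lincRNA transcript start on chromosomes 1 to 19, X or Y that lay more than 5 kb from any protein-coding transcript start and outside every protein-coding gene body, with a window of 1 kb to each side. Of 8621 lincRNA starts in GENCODE M21 (6056 genes), 7372 starts of 5170 genes met this rule. The others lay inside coding gene bodies (523 starts) or within 5 kb of a coding start (726 starts). A start is called open here where at least 1 peak centre of each library lay in its window.

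LincRNAs are transcripts longer than small RNAs that encode no known protein and are made from their own promoters, spliced and often polyadenylated, between the protein-coding genes. Some act in the nucleus on chromatin or on nuclear bodies, some carry microRNAs or small nucleolar RNAs (snoRNAs) in their introns or exons, and for many no function is known. Active promoters are depleted of nucleosomes, so DNase I cuts them readily, and promoters rich in the dinucleotide CG (CpG islands) are open in many tissues.

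The series holds 1 group of 2 biological replicates: hindbrain of untreated, healthy embryos of the mouse strain B6NCrl at embryonic day 11.5, with male and female embryos pooled and no allele or transgene named. The libraries were sequenced on HiSeq 2500 and NextSeq 500 instruments. The labels give both replicates the same donor entry and do not say whether they came from separate litters, so the spread between them may be partly technical. Per its title the record has been superseded by a newer one, not analysed here.

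Replicate 1 had 150176 analysed peaks and replicate 2 had 194873, each 150 bp wide. Each peak carries a height written by the authors, with a median of 36 in replicate 1 and 50 in replicate 2 and a maximum of 145 and 149. The authors also called hotspots, which are broader stretches of frequent cutting and which spanned 44.7 Mb of replicate 1 but 73.7 Mb of replicate 2. Read depth is unknown, so libraries were compared by whether a peak was present and by percentile within a library, and heights below are given for replicate 1 and then replicate 2. Each height is that of the highest peak in the window, which can lie at a different place in each library. Starts of 7 of 10 hindbrain markers and 7 of 7 neural markers were open, beside 66.7% of all protein-coding genes. The hindbrain count is thus near the share of all coding genes. Hoxa2, Hoxb1 and Hoxb2 had peaks in replicate 2 alone. Of the markers of other cells, 1 of 4 endothelial (Kdr), 1 of 4 myeloid (Cd68), 1 of 3 muscle (Myod1), 0 of 3 erythroid and 0 of 3 liver genes were open. The erythroid gene Klf1 had a peak of 35 in replicate 1 alone, and the muscle gene Myog one of 50 in replicate 2 alone. In tissue, a low peak can come from few cells or from weak opening in many, and these cannot be told apart.

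The following 8 stretches of 150 bases show what the windows hold, each read 5′ to 3′ on the transcript's strand from the RefSeq GRCm38.p6 sequence, with every CG dinucleotide in capitals. 6720427I07Rik is the highest member, and 1810026B05Rik and Snhg8 are known lncRNAs among the highest 15. The 6720427I07Rik stretch is its replicate 1 peak, 510 bp downstream of the start, whereas its highest replicate 2 peak lay at -170 bp. The 1810026B05Rik stretch is centred at -717 bp. Miat and Mir124-2hg are neural lncRNAs with high peaks, and Gm32123 is the highest member in a CpG-poor window. Gm14424 is the highest start with a peak in replicate 2 alone, and Pantr1 is a CpG-rich start without a peak, shown around the start itself. Their positions are chr13:48545916-48546065 for 6720427I07Rik, chr7:73558616-73558765 for 1810026B05Rik, chr3:123508416-123508565 for Snhg8 and chr5:112228936-112229085 for Miat, all on the minus strand. Mir124-2hg is at chr3:17793796-17793945, Gm32123 at chr14:25108936-25109085 and Gm14424 at chr2:74752856-74753005 on the plus strand, and Pantr1 at chr1:42651604-42651753 on the minus strand.
6720427I07Rik: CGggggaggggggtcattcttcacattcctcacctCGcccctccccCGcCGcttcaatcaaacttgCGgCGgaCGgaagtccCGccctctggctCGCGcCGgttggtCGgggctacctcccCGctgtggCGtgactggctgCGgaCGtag
1810026B05Rik: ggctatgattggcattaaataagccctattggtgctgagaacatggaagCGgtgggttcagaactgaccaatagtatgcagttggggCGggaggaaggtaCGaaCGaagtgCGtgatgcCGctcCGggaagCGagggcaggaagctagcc
Snhg8: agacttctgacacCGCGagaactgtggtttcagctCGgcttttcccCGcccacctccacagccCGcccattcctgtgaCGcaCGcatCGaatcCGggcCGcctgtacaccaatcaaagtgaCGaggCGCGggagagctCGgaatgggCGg
Miat: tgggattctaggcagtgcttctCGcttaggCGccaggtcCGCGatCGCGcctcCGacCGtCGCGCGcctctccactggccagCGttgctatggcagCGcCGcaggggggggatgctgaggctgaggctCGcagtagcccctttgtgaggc
Mir124-2hg: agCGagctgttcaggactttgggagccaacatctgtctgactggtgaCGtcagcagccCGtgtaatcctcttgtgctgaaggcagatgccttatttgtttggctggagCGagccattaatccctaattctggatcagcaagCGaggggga
Gm32123: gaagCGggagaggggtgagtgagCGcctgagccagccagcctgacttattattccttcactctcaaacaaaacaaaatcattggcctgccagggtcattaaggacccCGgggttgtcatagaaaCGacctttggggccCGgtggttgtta
Gm14424: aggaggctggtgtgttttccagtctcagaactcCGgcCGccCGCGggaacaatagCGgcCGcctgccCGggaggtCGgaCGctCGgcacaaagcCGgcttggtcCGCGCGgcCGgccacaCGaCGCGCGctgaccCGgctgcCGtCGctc
Pantr1: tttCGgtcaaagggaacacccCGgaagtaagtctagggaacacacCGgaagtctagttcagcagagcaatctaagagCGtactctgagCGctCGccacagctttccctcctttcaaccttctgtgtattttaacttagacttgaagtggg
The CG count was 16 in the 6720427I07Rik peak, 8 in that of 1810026B05Rik, 15 in that of Snhg8 and 15 in that of Miat. The Mir124-2hg and Gm32123 peaks held 5 each, the Gm14424 peak 22 and the Pantr1 stretch 6. The Mir124-2hg peak holds the letters of the cyclic AMP response element (TGACGTCA), and those of 1810026B05Rik and Snhg8 hold both the CCAAT box (CCAAT) and the GC box (GGGCGG), on either strand.

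Of the 7372 starts, 1550 had a peak in both libraries (21.0%, 95% exact Clopper-Pearson interval 20.1 to 22.0%, which covers counting error only). The share was 62.6% at protein-coding starts, 3.65% in intergenic windows of the same length taken on a regular 10 kb grid and 3.11% at starts of intergenic processed pseudogenes, which are gene copies that mostly lack a promoter. Replicate 1 had a peak at 1741 starts (23.6%) and replicate 2 at 2077 (28.2%). A peak was seen in replicate 1 alone at 191 starts (2.59%), in replicate 2 alone at 527 (7.15%) and in neither at 5104 (69.2%). Hotspots gave 1623 starts in both libraries (22.0%), against 63.4% of protein-coding starts and 4.14% of grid windows. LincRNA starts were thus open less often than coding starts and more often than other intergenic DNA, with intervals that did not overlap.

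**Figure D1:**
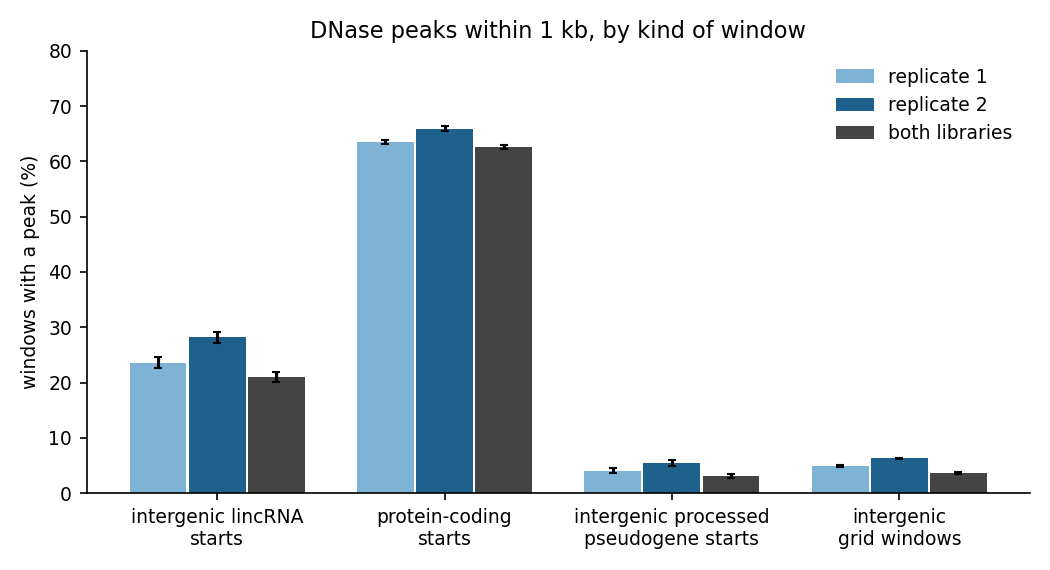
Share of windows (%) with a peak in replicate 1, in replicate 2 and in both libraries for intergenic lincRNA starts, protein-coding starts, pseudogene starts and grid windows, with bars for the 95% exact interval. The 21.0% of lincRNA starts open in both libraries lies between the 62.6% of coding starts and the 3.65% of grid windows.

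By gene, 1001 of 5170 had at least 1 open start (19.4%), against 66.7% of protein-coding genes. Among 1248 genes with more than 1 member start, 191 had every start open, 170 some and 887 none. Starts of 1 gene often share a window, and 2955 members had another member start within 2 kb, so starts are not independent of each other. Genes with 4 or more starts had 38.6% of their starts open, those with 2 or 3 starts 20.6% and those with 1 start 16.3%. The number of exons made little difference: the share was 21.3% for 1 exon and 23.4% for 5 or more.

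Peak centres were most frequent just upstream of the start. In replicate 1, 6.74% of member windows had a peak centred in the 100 bp just upstream of the start, and 1.18% had one in the outermost upstream 100 bp. In replicate 2 these shares were 7.96% and 1.84%, while no grid window bin passed 0.467% in either library. At open starts the highest peak lay a median of 62 bp upstream in replicate 1 and 48 bp upstream in replicate 2 (offsets of -62 and -48 bp), beside -64 and -52 bp at coding starts. Without regard to side, the median distance was 221 and 207 bp, against 109 and 106 bp at coding starts. It was centred within 100 bp of the start at 31.6% and 31.7% of open members, at 47.3% and 48.3% of open coding starts and at 9.90% and 9.79% of grid centres. The placement was thus looser than at coding genes.

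**Figure D2:**
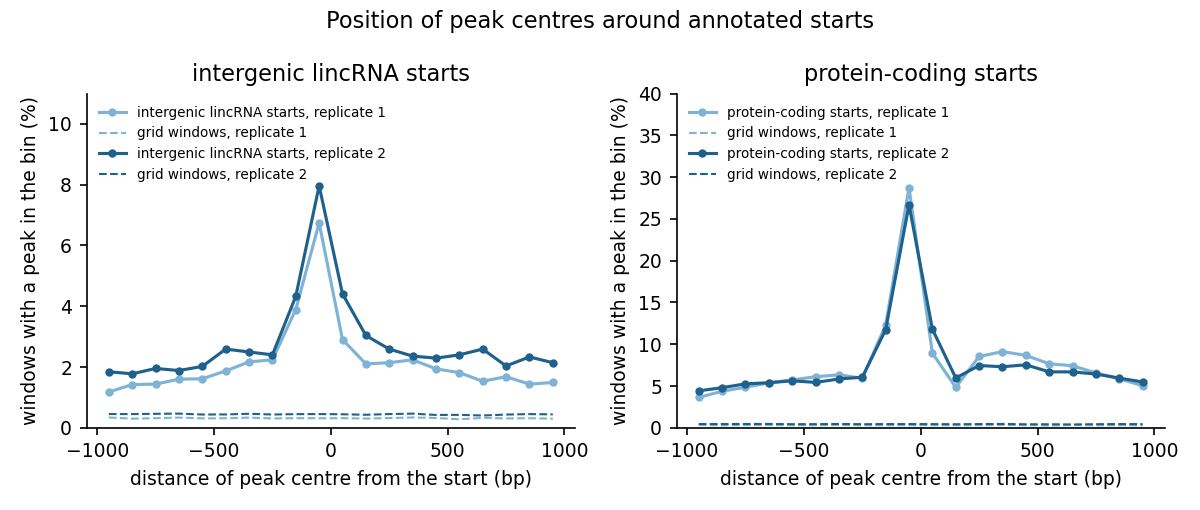
Share of windows (%) with a peak centre in each 100 bp bin around the start, left for intergenic lincRNA starts and right for protein-coding starts on its own scale, with grid windows dashed. The lincRNA curve reaches 6.74% in replicate 1 and 7.96% in replicate 2 just upstream of the start.

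Peaks at open members were lower than at open coding starts. The highest peak had a median height of 59 (quartiles 37 and 82) in replicate 1 and 88 (61 and 109) in replicate 2. The medians were 100 and 127 at coding starts and 42 and 62 in open grid windows. Within its own library the median member peak stood at percentile 75.5 in replicate 1 and 80.6 in replicate 2. The libraries ranked the members alike: over 1039 distinct pairs of highest peaks Spearman's rho came to 0.877 and Pearson's r, on log2 heights, to 0.850, a description across sites that share local base composition. The highest peaks of both libraries overlapped in 84.1% of pairs, beside 86.5% at coding starts and 87.9% in grid windows. The written height was larger in replicate 2 in 95.4% of pairs, beside 99.0% and 91.6%, and the percentile was larger there in 65.9%, beside 74.4% and 53.9%. At starts open in 1 library alone, peaks were low, with a median of 26 in replicate 1 and 38 in replicate 2.

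**Figure D3:**
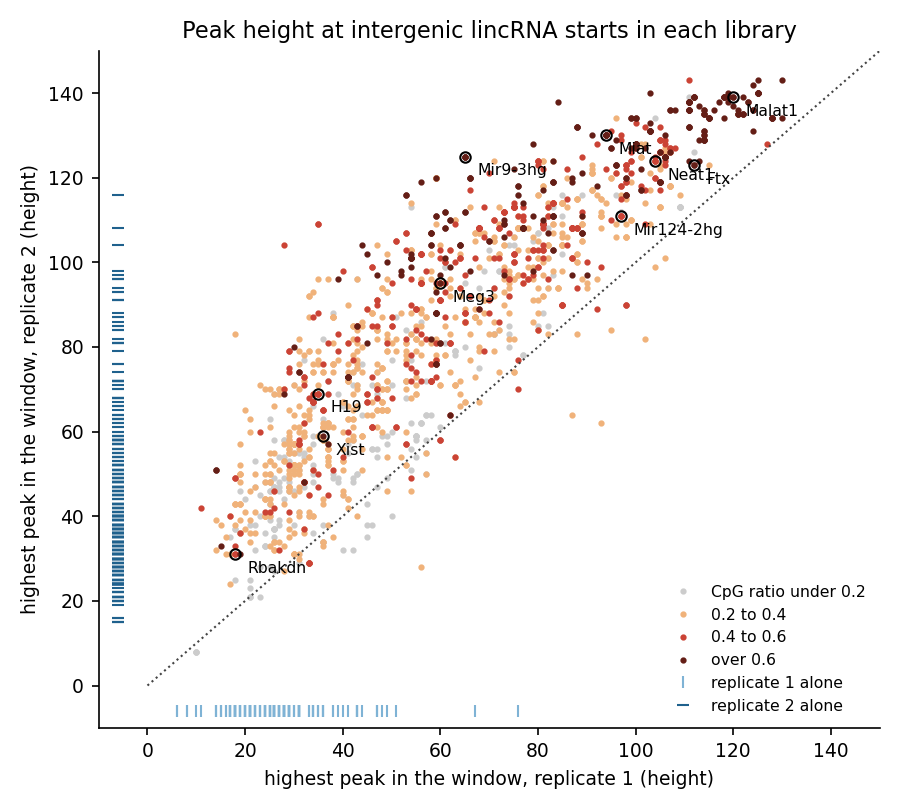
Height of the highest peak in each member window in replicate 1 (horizontal) and replicate 2 (vertical), coloured by CpG ratio, with starts of 1 library alone as ticks at the edges and the dotted line at equal heights. Malat1 lies near the top of both axes at 120 and 139. Mir9-3hg lies far above the line at 65 and 125, from peaks at different places in the libraries. The replicate 2 ticks reach 116 while the replicate 1 ticks end at 76.

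Openness followed CpG content closely. The CpG ratio, observed over expected CG dinucleotides in 1001 bp around the start, had a median of 0.347 at open members and 0.182 at members without a peak. Of starts with a ratio under 0.2, 241 of 3421 were open (7.04%). The share was 23.5% (687 of 2924) at 0.2 to 0.4, 50.1% (355 of 708) at 0.4 to 0.6 and 83.7% (267 of 319) over 0.6. In coding starts it ran from 7.76% through 29.3% and 83.1% to 98.2% in the same classes, so members and coding starts lay near each other in the lower classes and apart above 0.4. Grid windows over 0.6 were open in 11.6% and pseudogene starts in 29.2%, both below the lincRNA starts of that class. Few lincRNA starts are CpG-rich, and the 319 over 0.6 gave 267 of the 1550 open starts.

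**Figure D4:**
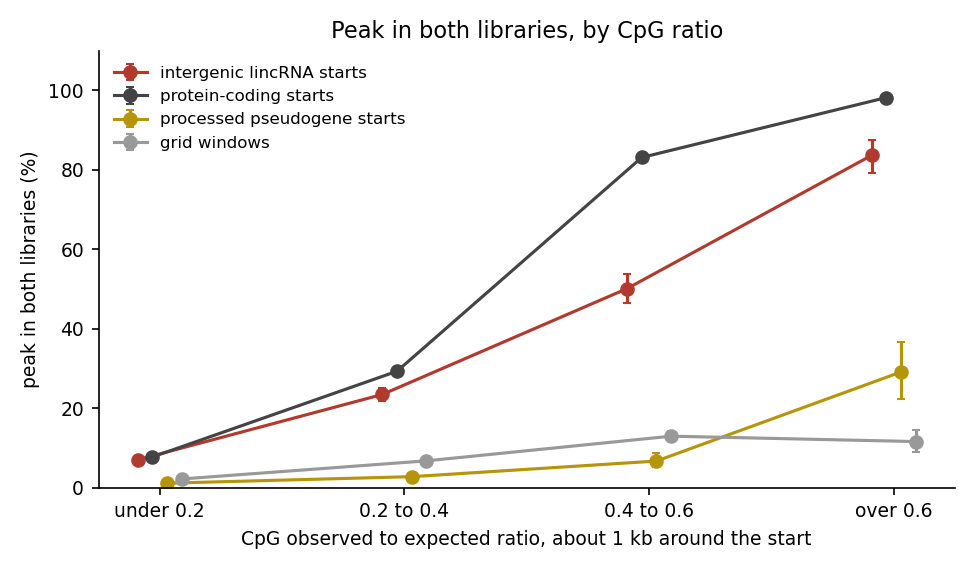
Share of windows (%) with a peak in both libraries by CpG ratio class for lincRNA starts, coding starts, pseudogene starts and grid windows, with bars for the 95% exact interval. The lincRNA curve rises from 7.04% to 83.7%, and the grid curve does not pass 13.0%.

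CpG-poor starts could still be strongly open. The highest in a window under 0.2, chosen after its values were seen, was Gm32123 with 111 and 139, followed by Gm48801 (104 and 134), E130018N17Rik (112 and 126) and Gm29208 (109 and 113). Each had its peaks upstream of the start, at -374 and -414 bp for Gm32123 and at -72 bp in both libraries for Gm48801. In the sequence above, the Gm32123 peak holds 5 CG in 150 bases. Among the 319 CpG-rich starts, 41 had no peak, 9 a peak in replicate 2 alone and 2 in replicate 1 alone. Of those 41, 17 lay in windows that are over 50% repeat.

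Windows with more repeat sequence had fewer called peaks. With up to 20% of the window soft-masked as repeat, 28.8% of members were open. The share was 18.6% at 20 to 50%, 5.15% at 50 to 80% and 0.211% (2 of 947) over 80%. Chromosome Y held 769 member starts, 765 of them in windows over 80% repeat, and 1 was open, Gm28587 near Kdm5d with 36 and 43. Without chromosome Y, 1549 of 6603 starts were open (23.5%), and the share on the other chromosomes ran from 16.9% on chromosome 10 to 29.8% on chromosome 6. Whether reads can be placed in such repeats at all was not tested.

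The share of open starts was lower farther from coding genes. It was 26.9% at 5 to 20 kb from a coding start, 24.0% at 20 to 100 kb, 17.8% at 100 to 500 kb and 9.47% beyond 500 kb. In grid windows it was 6.38%, 5.16%, 2.74% and 0.905% over the same classes. At CpG ratios of 0.2 to 0.6 the members' share changed less up to 500 kb. It was 23.2%, 24.2% and 24.4% at a ratio of 0.2 to 0.4 and 54.2%, 51.7% and 51.1% at 0.4 to 0.6. In the outer classes the share was lowest at 100 to 500 kb among these distances. It was 8.92%, 8.86% and 5.39% under 0.2 and 84.0%, 92.0% and 68.3% over 0.6. Where the nearest coding gene was itself open, 23.4% of members were open, and where it was not, 317 of 2107 were. Orientation to that gene made little difference, with 21.9% on the same strand, 20.5% divergent and 19.4% convergent. Members with a lincRNA start of another gene on the opposite strand within 1 kb were open in 34.6% (106 of 306), against 20.4% of the others. Members within 1 kb of a start of another annotated transcript type were open in 45.7% (246 of 538), against 19.1%.

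Genes that encode developmental regulators (transcription and signalling factors, a list of 336) were the nearest coding gene of 460 members, of which 135 were open (29.3%, interval 25.2 to 33.7%), against 20.5% (19.5 to 21.4%) of the other 6912. Those others include the starts on chromosome Y, where 1 of 769 was open, and the comparison was not made without them. At 5 to 20 kb from such a gene 26 of 60 were open (43.3%), against 25.9% beside other genes. Grid windows at that distance were open in 16.2% beside developmental genes and 6.12% beside others. Within CpG classes the share beside developmental genes was higher below 0.6 and lower above it. It was 13.9% against 6.71% under 0.2, with intervals that did not overlap, then 51 of 196 against 636 of 2728 (23.3%) at 0.2 to 0.4 and 54.9% against 49.5% at 0.4 to 0.6. Over 0.6 it was 70.8% (17 of 24) against 84.7% (250 of 295), and the intervals overlapped in the 3 higher classes.

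By mean percentile, the highest of these were 4932412D23Rik beside Zbtb20, a zinc finger factor of brain development, with 118 and 139, and Snhg6 beside Tcf24 with 121 and 135. Gm44946 lay 14.1 kb from Nr2f2, a nuclear receptor, with 100 and 133. Next came 4930519A11Rik, 36.1 kb from Mycn, a growth regulator of neural progenitors, with 106 and 127. C130071C03Rik lay 79.7 kb from Mef2c, a factor of neuronal and muscle differentiation, with 106 and 123. Their nearest coding genes were open too.

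The 15 highest members by mean percentile had heights from 118 to 130 in replicate 1 and from 134 to 143 in replicate 2. All 15 had a CpG ratio over 0.6, between 0.615 and 1.07, and lay 10.2 to 104.3 kb from the nearest coding start. 6720427I07Rik led with 130 and 143, with Gm10433 at 125 and 143 and Gm10010 at 124 and 142. Then followed 1810026B05Rik (125 and 140), 1700096K18Rik (122 and 139) and Snhg8 (123 and 138). 1810026B05Rik, also called Chaserr, is transcribed beside Chd2, a chromatin remodeler that it is known to restrain, and all 6 of its member starts were open. AC132957.1 had 119 and 140, Malat1 120 and 139 and 4632415L05Rik 124 and 136. The remaining genes were Gm33195 (119 and 139), AC109138.4 (130 and 134), 4932412D23Rik (118 and 139), 5430416N02Rik (128 and 134), Tmem250-ps (119 and 138) and Gm20732 (120 and 137). In 14 of the 15, the nearest coding gene was open, the exception being 1700096K18Rik. The highest peak lay upstream of the start in both libraries in 11 of the 15. It lay at -998 and -898 bp for Malat1 and at -717 and -697 bp for 1810026B05Rik. For 6720427I07Rik (510 and -170 bp) and 4932412D23Rik (-123 and 457 bp) the heights belong to different places in the libraries.

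Some windows held several peaks. Of the 1741 windows with a replicate 1 peak, 847 had 1, 455 had 2 and 439 had 3 or more, with at most 6. Of the 2077 with a replicate 2 peak the numbers were 884, 609 and 584, with at most 7. The 5 genes with the most shared peaks had 5 peaks of replicate 1 that each overlapped a peak of replicate 2: B130011K05Rik (90 and 97), C230035I16Rik (98 and 119), CR974462.6 (105 and 117), Gm31793 (56 and 88) and Gm33195. The central 31 bases of the CR974462.6 peak occur at 2812 places in the genome, and 48.0% of the sequence around its start is repeat. It was the only one of 72 named genes with such bases at more than 1 place. What the other copies add to its heights and peak count was not tested.

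Of 118 well-studied lncRNAs listed by hand, 98 were in the annotation and 49 were members. Of these, 39 were open (79.6%, beside 19.4% of all member genes), 3 had peaks in 1 library or at different starts in each, and 7 had none. A gene counts as open if any of its starts is open, and many listed genes have several starts. Of the 5170 member genes, 3922 have 1, so the shares were not compared at like numbers of starts. The list was also made with earlier results of these data known. Malat1, an abundant RNA of nuclear speckles, had 120 and 139, and Neat1, the scaffold of paraspeckles, 104 and 124. At the start used, the highest peak lay at -998 and -898 bp for Malat1 and at -671 and -651 bp for Neat1. Miat, a nuclear RNA of neural progenitors and neurons, had 94 and 130 with all 6 of its starts open.

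The X inactivation centre was open at each of its 3 member genes. Xist, the RNA that coats the inactive X chromosome, had 36 and 59, at percentiles 50.1 and 59.6 of all peaks of each library and at -36 and 24 bp from its start. Ftx and Jpx, both known as activators of Xist, had higher peaks. Ftx had 112 and 123 at its highest start, with 9 of 10 starts open at heights from 45 and 81 upward, and Jpx had 77 and 108 with 9 of 10 open. The highest Jpx peaks lay at different places in the libraries, at -86 and 154 bp. The tissue pooled both sexes, so the share of female cells is unknown.

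Meg3, H19, Rian and Mirg are imprinted, that is, transcribed from 1 parental allele. Meg3 had 60 and 95 with 7 of 11 starts open, and H19 had 35 and 69 with 4 of 7 open. The 4 open H19 starts all had these same heights. From the H19 start at position 142577386 the peak lay at -824 and -884 bp. Its distance from the other open H19 starts is not given here, so it may lie nearer to them. Rian and Mirg, which lie downstream of Meg3 and are thought to be made largely as its continuation, were not open at any of their 13 and 11 starts. Rian had 1 start with a peak of 29 in replicate 1 alone. Mirg had 1 start with a peak of 22 in replicate 1 and, at other starts, a peak of 70 in replicate 2.

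Hosts of small RNAs were open more often than other member genes. Of 67 member genes that contain a microRNA, 41 were open (61.2%), and of 39 that contain a snoRNA, 18 were open (46.2%), against 18.6% of the genes with neither. The intervals of the first and second did not reach that of the third. Mir124-2hg and Mir124a-1hg, hosts of the neuronal microRNA miR-124, had 97 and 111 and 59 and 111, with every start open. Mir9-3hg, a host of miR-9 of neural progenitors, had 65 and 125. Mir17hg, host of the growth-promoting miR-17 cluster, had 91 and 123, Dleu2, host of miR-15a and miR-16-1, 111 and 136 with 9 of 9 starts open, and Mir99ahg 73 and 112. The highest peaks of the libraries lay at different places for Mir124a-1hg (979 and -181 bp), Mir9-3hg (-696 and -76 bp) and Mir99ahg (350 and 70 bp). For Mir17hg they lay at -789 and -769 bp. Mir155hg, host of an immune cell microRNA, also had peaks, of 54 and 99.

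All 6 Snhg genes on the list, which are snoRNA hosts, were open: Snhg8 (123 and 138), Snhg6 (121 and 135), Snhg20 (111 and 138), Snhg5 (107 and 136), Snhg12 (106 and 125) and Snhg17 (105 and 119). Dancr had 111 and 124 and Epb41l4aos 99 and 134. Their replicate 1 heights of 99 to 123 all exceed the median of 59 over open members. These heights are from the highest start of each gene, whereas the median is over all open starts. At the start used, the highest peak lay at 742 bp in both libraries for Snhg20 and at -947 and -927 bp for Snhg6. For Snhg5 it lay at different places in the libraries, -100 and -280 bp.

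Rmst, a neuronal differentiation RNA that binds Sox2, had 83 and 103 with 8 of 12 starts open. Pantr2, transcribed 17.7 kb from the neural factor gene Pou3f3, had 87 and 119, whereas all 4 starts of Pantr1, 44.1 kb from that gene, had no peak, although the window of the start shown above has a CpG ratio of 0.601. C130071C03Rik had all 4 starts open. Pvt1, beside the oncogene Myc, had 56 and 102, Lockd, beside the cell cycle inhibitor gene Cdkn1b, 105 and 126, and Lncpint 54 and 101 with 10 of 14 starts open. The highest peaks of the libraries lay at different places for Rmst (-609 and 131 bp), Pantr2 (-316 and -56 bp) and Lncpint (-204 and 416 bp). Trp53cor1, the p53 target beside Cdkn1a, had 42 and 74 at 1 of 7 starts. Lncenc1, known from embryonic stem cells, had 56 and 85 at 1 of 3 starts.

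Of the remaining list members, Dubr had 103 and 131, 2610035D17Rik 100 and 134, 2900097C17Rik 70 and 105 and Rbakdn 18 and 31, the lowest pair among the open list members. Carmn and Bvht, known from smooth muscle and heart, had 43 and 75 and 33 and 92. Lncppara had a peak in replicate 2 alone, of 72. No peak was found at Crnde, Gm26917, Gm2694, Hotair, Pantr1, Platr3 or Platr4. Platr3 and Platr4 are known from embryonic stem cells, and Hotair, in the Hoxc cluster, from posterior and distal limb tissue. All 7 had no hotspot in the window either.

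Starts open in replicate 1 alone were weak. The highest were Gm48954 with 76, Gm49156, 67.0 kb from the brain factor gene Otx2, with 67, and Gm19990 with 51. Starts open in replicate 2 alone reached higher, with Gm14424 at 116, Gm9979 at 108 and 1700021L23Rik at 104. Gm14424 lies 7.01 kb from Hoxd3, a patterning gene, and Gm9979 lies 24.9 kb from Tfap2a, a neural crest factor, in a replicate 2 hotspot of 11818 bp. In neither window did replicate 1 have a hotspot. Of 527 starts with a peak in replicate 2 alone, 33 had a replicate 1 hotspot (6.26%), and of 191 in replicate 1 alone, 10 had a replicate 2 hotspot (5.24%).

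High peaks in replicate 2 alone lay mostly beside developmental regulators, a split made after its values were seen. With a replicate 2 height over 80, 15 of 27 such starts had a developmental factor as nearest coding gene (55.6%, interval 35.3 to 74.5%). At starts open in both libraries with the same replicate 2 height this was so for 77 of 897 (8.58%, 6.83 to 10.6%). By gene the counts were 11 of 21 (52.4%) and 45 of 524 (8.59%). A gene with starts of both kinds counts in both groups, as Gm53 does. For replicate 2 heights up to 50 the shares were 8.66% (35 of 404) and 8.07% (18 of 223). The genes were Gm14424 (Hoxd3), Gm9979 (Tfap2a), Gm44948 (Nr2f2), 5033428I22Rik (Hand2), Gm28182 (Onecut1), Paupar (Pax6), D130079A08Rik (Pou4f1), AC166821.1 (Six2), Sfta3-ps (Nkx2-1), Gm53 (Hoxb9) and Gm29478 (Zic4), with the neighbour in brackets. Their replicate 2 heights ran from 116 at Gm14424 to 81 at Gm53 and Gm29478, and 10 of these 11 had no replicate 1 hotspot in the window, the exception being D130079A08Rik.

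**Figure D5:**
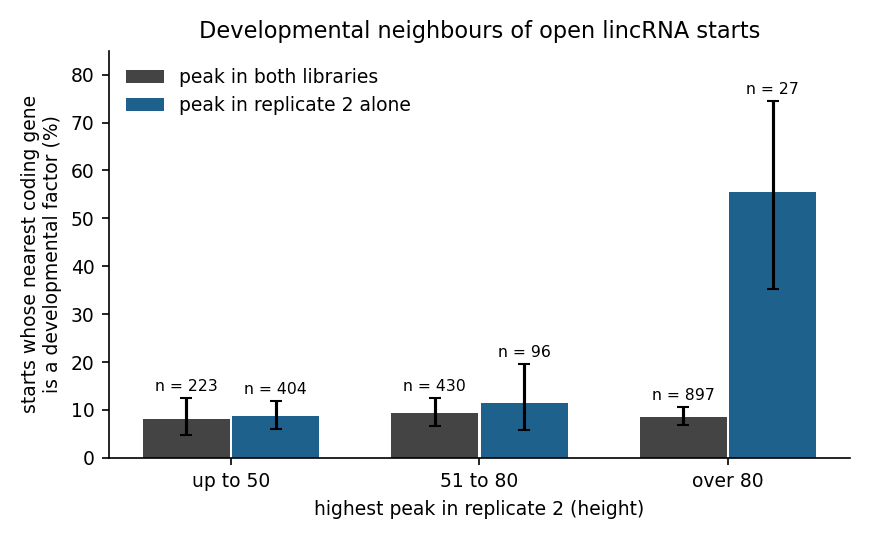
Share of open lincRNA starts (%) whose nearest coding gene is on the developmental list, by height of the replicate 2 peak, for starts open in both libraries and in replicate 2 alone, with bars for the 95% exact interval and the number of starts. The share is 55.6% in replicate 2 alone over height 80 and between 8.07% and 11.5% in the other classes.

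The same contrast appeared at coding genes: of 101 with a start peak over 80 in replicate 2 alone, 40 were on the developmental list (39.6%), against 294 of 13439 (2.19%) open in both libraries at such a height. Here too a gene with starts of both kinds counts in both groups. Hotspots of replicate 2 were wide at starts with such a peak in replicate 2 alone. Of the 21 lincRNA genes, 12 lay in a replicate 2 hotspot over 2 kb (57.1%), against 103 of 524 (19.7%) open in both. The Hox clusters show it in detail. Of 39 Hox genes, 19 had peaks in both libraries, at the same or at different starts, 14 in replicate 2 alone and 1 in replicate 1 alone. Of all protein-coding genes, 66.7% had peaks of both libraries at the same start, which is a stricter count. By start, 19 of 62 Hox starts had a peak in replicate 2 alone, beside 3.34% of all protein-coding starts. Of the 11 member starts next to a Hox gene, 5 were open in both, 5 in replicate 2 alone and 1, Hotair, in neither. Gm11535, beside Hoxb13, had 28 and 104. Gm53, beside Hoxb9, had 77 and 110 at the start nearest to that gene and a peak of 81 in replicate 2 alone at its other 3. With 2 libraries, what set them apart at these windows was not tested.

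For 10 of 15 motifs searched in the 150 bp peaks, the share in member peaks lay between those of coding and other intergenic peaks in both libraries. This is an order of point values, and some differences are small. For the Sox sequence in replicate 1 the members' interval of 2.65 to 4.27% held the intergenic share. There were 2063 peaks of replicate 1 and 2694 of replicate 2 in member windows, 38841 and 39435 at coding starts, and 49502 and 68892 in other intergenic DNA. The GC box (GGGCGG), the site of Sp factors, was in 13.3% and 12.7% of member peaks, in 34.8% and 34.0% of coding peaks and in 6.29% and 6.29% of intergenic peaks, searched on both strands in replicates 1 and 2. An ETS sequence (CCGGAAG) was in 2.42% and 2.00%, against 6.40% and 6.09% at coding starts and 1.14% and 1.17% elsewhere. For the E-box CAGCTG of neural basic helix-loop-helix factors the members' 14.0% and 14.9% were near the intergenic 14.2% and 15.6% and above the coding 9.68% and 9.80%. For the Sox sequence (ACAATGG) the members had 3.39% and 3.04%, beside 3.46% and 3.17% in intergenic and 1.37% and 1.35% in coding peaks. CG content moved with these shares: the mean number of CG per peak was 4.89 and 4.51 in members, 9.95 and 9.73 at coding starts and 2.77 and 2.80 elsewhere. Among peaks with at least 7 CG the GC box share was 34.6% and 37.5% in members, 50.3% and 51.6% at coding starts and 29.0% and 26.7% in intergenic peaks. The order did not hold there for the cyclic AMP response element. Its share was 2.83% and 2.36% in members, 1.93% and 1.82% at coding starts and 0.977% and 0.834% in intergenic peaks. The intervals of members and coding starts overlapped. Over all peaks, the 5 motifs outside the order were parts of the CTCF, RFX and YY1 motifs, the homeodomain sequence (TAATTA) and the CCAAT box. The YY1 part (AAGATGGCG) was in 0.145% and 0.148% of member peaks, below the 0.801% and 0.842% of coding and the 0.238% and 0.197% of intergenic peaks. The homeodomain sequence was in 3.64% and 2.93% of member, 1.15% and 1.15% of coding and 3.62% and 3.54% of intergenic peaks. The CCAAT box was in 19.6% and 17.9% of member peaks, near the 19.6% and 18.5% of coding and the 19.3% and 18.5% of intergenic peaks. A match is a description of the letters, not of binding.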

How the data were processed

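DNase-seq was measured in 2 hindbrain libraries, 1 group with no comparison between groups and no test. Each library has its own deposited peak list and hotspot list on build mm10, per the file headers and the text beside them. The deposited peak height is a score the authors wrote, a whole number whose scaling is not given. For hotspots, the authors deposited a −log10 q-value, with 100 as the highest value written, and a score that follows it. Neither the aligner, the caller and their versions nor the depth is given in the sources used here.

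Only chromosomes 1 to 19, X and Y were used, and repeated entries at 1 position were dropped. Starts came from the comprehensive GENCODE M21 annotation, with starts at the same position and strand merged. A peak counted if its centre lay within 1000 bp of the start, and a hotspot if it overlapped that window. Base composition and repeats were read from RefSeq GRCm38.p6 in 1001 bp. Grid windows lay every 10 kb from 3 Mb, under the same distance rules, without unknown bases or a member start within 2 kb. Pseudogene starts followed the same distance rules. Shares carry 95% exact Clopper-Pearson intervals from scipy 1.17.1, which cover counting error only. Python 3.11.15, numpy 2.4.6, pandas 2.3.3, pysam 0.24.0 and matplotlib 3.10.9 were used, and the window search was tested on simulated data.

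Named were the 15 genes with the highest peaks by mean percentile, the 5 with the most shared peaks, every known lncRNA that is a member, the 5 highest beside developmental factors and the 3 highest starts of each library alone; others are said to be chosen later. Members and lists were chosen with earlier results of these data known. All 15 motifs were searched on both strands, longer ones as parts of at most 9 letters, a change made after the files were seen. Alternatives tried were peak placement, window, distance, gene bodies, starts per gene, other annotated genes, annotation level, peak height, list length and each library alone.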

Additional observations from a re-analysis of the deposited data

How the results depend on the processing

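Of members, 21.0% had a peak in both libraries and 22.0% a hotspot, against a peak in 3.65% of grid windows. In the 9 settings run for both, the peak share of members stayed above that of grid windows, and the other settings were run for members alone. The peak share became 17.3% with 500 bp and 28.7% with 2500 bp to each side, 17.9% over 50 kb from coding starts, 18.3% with 1 start per gene, 18.4% away from starts of other annotated genes and 15.6% with only the higher-ranked peaks of each library (above its median height). The hotspot share became 18.7% and 29.6% with those windows, 18.8% over 50 kb, 19.3% with 1 start per gene, 19.3% away from other genes and 13.5% with hotspots at the highest written value. The grid share became 1.96% and 8.37% with those windows, 3.79%, 3.47% and 2.70% over 2, 10 and 50 kb, 1.92% above the median height and 3.26% with the longer peak list cut to the length of the shorter. Leaving out each library in turn gave 23.6% to 28.2% for peaks, 24.7% to 29.4% for hotspots and 4.91% to 6.28% for grid windows. Other peak placements, distances of 2 and 10 kb for members, gene bodies kept, annotation level 3 left out and the shorter list length stayed within the intervals of the member shares. Of 2 alternatives added after seeing the data, leaving out chromosome Y gave 23.5%, and leaving out starts near RefSeq mRNAs gave 20.8% within the interval. Among 72 named genes, the number of libraries with a peak fell for 5 with 500 bp and for 5 above the median height, and rose for 4 with 2500 bp. No paired analysis was possible because the 2 libraries form 1 group. Read depth is unknown, so a window without a peak is one in which no peak was called, not one shown to be closed.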
